A study of Homo sapiens with 21 samples.

Results

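The comparison set the libraries of cells given an shRNA against ANXA4 directly against those of cells given an shRNA against B4GALNT1, without the libraries of the non-targeting shRNA. It used 6 of the 21 libraries of the study, 3 for each hairpin, picked by their column labels in the authors' FPKM table. All of them were HEK 293FT cells, a human embryonic kidney line, at passages 8 to 12. The cells had been transfected with a plasmid that expressed the hairpin, by Lipofectamine, and total RNA was extracted 48 h later for stranded mRNA libraries. The ANXA4 shRNA group and the B4GALNT1 shRNA group thus shared the line, the carrier and the time, and differed by label in the hairpin alone. Another 6 libraries served only to place a difference. They came from cells that expressed RfxCasR, an RNA-guided RNA nuclease of the Cas13d family, with either a guide to B4GALNT1 or a non-targeting (NT) guide, called single-guide libraries here. The hairpin sequences are not given in the sources used here, each target had 1 hairpin, and the share of cells transfected is not stated.

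Annexin A4, the product of ANXA4, binds phospholipid membranes when calcium is present. B4GALNT1 is the glycosyltransferase that makes the gangliosides GM2 and GD2. An shRNA is a short hairpin transcript that Dicer cuts into a small duplex, of which 1 strand is loaded into an Argonaute protein and guides it to messages that it can pair with. A message that pairs along the whole guide is cut, while pairing of a short stretch near the guide's start, the seed, can lower a message in the way a microRNA does. Comparing 2 hairpins with each other asks which differences belong to a hairpin and not to the use of hairpins.

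The 6 libraries held 21.35 to 28.95 M reads each, recovered from the FPKM values. Genes with at least 1 FPKM (fragments per kilobase of exon per M fragments) in at least 3 of the 21 libraries were tested, 13679 of the 27142 listed. Differences are ANXA4 shRNA minus B4GALNT1 shRNA on the scale log2(FPKM + 1), which understates the change of low genes, and a gene is called at a limma adjusted p under 0.05. Of 17 marker genes of HEK 293 cells, 15 reached 1 FPKM in all 6 libraries, and of 18 markers of blood, fibroblast, endothelial and liver cells, 14 never did. The summed level of those 18 was 14.20 to 15.24 FPKM with the ANXA4 shRNA and 14.02 to 16.02 FPKM with the B4GALNT1 shRNA. These are bulk samples, in which fewer transfected cells and less RNA per cell cannot be told apart. The 6 libraries labelled as RfxCasR arrays entered only the filter on low values. In them the level of ANXA4 went against the labels (7.03 ± 0.24 FPKM with the ANXA4 array and 3.03 ± 0.43 FPKM with the NT array, SD, n = 3 each), and the same filter over the 6 hairpin libraries alone left the counts of called, placed and alike genes within 1.5 times their values.

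Each target was lower with its own hairpin than with the other one. ANXA4 (NM_001153, chr2:69969106-70053609 on the plus strand, hg19) had 2.150, 2.557 and 2.496 FPKM with the ANXA4 shRNA, against 4.779, 4.647 and 5.464 FPKM with the B4GALNT1 shRNA. The groups did not overlap. The difference was -0.81 log2 (SE 0.081, limma adjusted p = 8.22e-05), a level 51.6% lower with its own hairpin. B4GALNT1 (NM_001478, chr12:58019678-58027022 on the minus strand, hg19) had 5.80, 5.49 and 5.63 FPKM with the ANXA4 shRNA, against 2.96, 2.79 and 2.59 FPKM with the B4GALNT1 shRNA. Here too every library of the targeting hairpin lay below every library of the other. The difference was 0.81 log2 (SE 0.064, adjusted p = 2.25e-05), a level 50.7% lower with its own hairpin. Taken singly, neither target can pass an exact two-sided permutation test of 3 libraries against 3, in which both reached 0.1, the smallest p possible. The single-guide libraries held ANXA4 at 6.56 to 7.60 FPKM, above all 6 hairpin libraries. For B4GALNT1 they held 2.03 to 2.35 FPKM with the B4GALNT1 guide and 5.09 to 6.88 FPKM with the NT guide, and the ANXA4 shRNA libraries lay inside the range of the NT guide.

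The hairpins differed at far more genes than their targets. limma called 6472 genes, 47.3% of those tested: 3763 genes (27.5%) were higher and 2709 genes (19.8%) lower with the ANXA4 shRNA. Most of these differences were small, since 82.2% of the called genes lay under 0.5 log2. The median difference between the hairpins was 0.171 log2 in size, against a median SD within a hairpin of 0.0724 log2. In 7720 genes, or 56.4% of those tested, the 3 libraries of one hairpin did not overlap with the 3 of the other. Both a call and at least 1 log2 were reached by 38 genes higher with the ANXA4 shRNA (0.278%) and 61 genes lower (0.446%). ANXA4 and B4GALNT1 were not among these 99 genes on the log2(FPKM + 1) scale, although their mean FPKM differed 2.07-fold and 2.03-fold. The direction of the small differences rested on the scaling: 58.1% of called genes were higher with the ANXA4 shRNA as the values were deposited, and 48.6% were with each library centred on its median. The median of all genes was 0.033 log2.

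**Figure D1:**
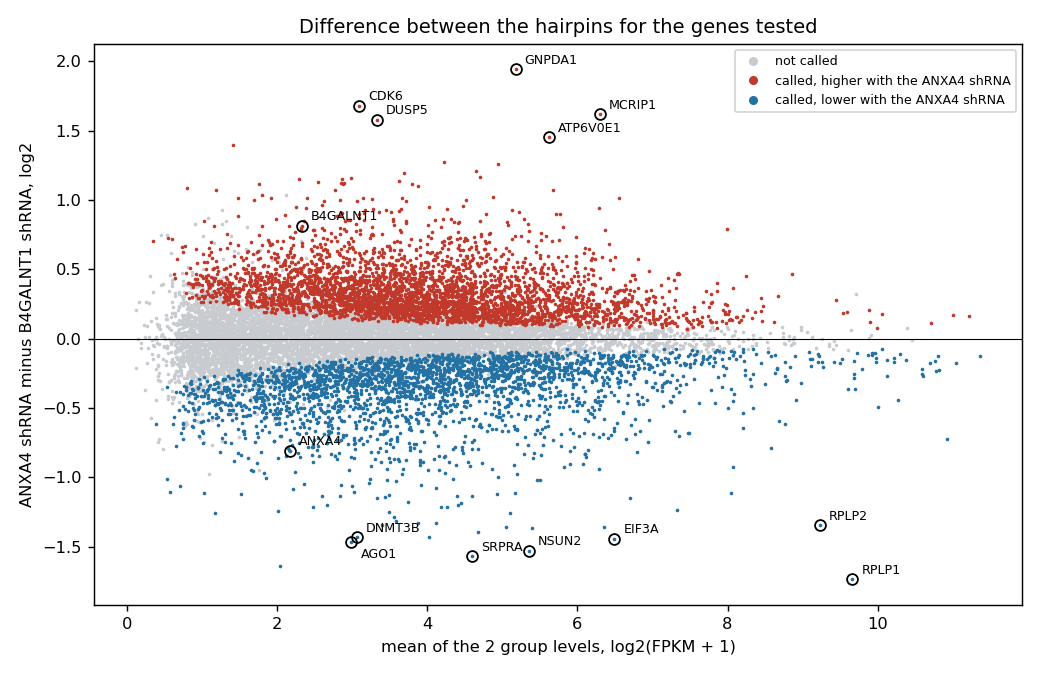
Each point is 1 of the 13679 genes tested: the x axis is the mean of the 2 group levels in log2(FPKM + 1), and the y axis is the ANXA4 shRNA minus B4GALNT1 shRNA difference in log2. Called genes are coloured by direction and 14 named genes are ringed; RPLP1 and RPLP2 stand out for a fall of over 1 log2 at a very high level, and both targets lie within 1 log2 of 0.

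The largest differences and the leading genes of each placement are given for genes with an NM accession, that is RefSeq messages. Of those higher with the ANXA4 shRNA, GNPDA1 was the farthest apart. GNPDA1, a deaminase of glucosamine 6-phosphate, had 70.4, 72.1 and 67.3 FPKM with the ANXA4 shRNA, against 17.3, 17.2 and 17.8 FPKM with the B4GALNT1 shRNA (1.94 log2, SE 0.038, adjusted p = 4.39e-08). Its single-guide libraries held 40.9 to 45.7 FPKM, between the hairpins, so that the distance was made up of a higher level with one and a lower level with the other. CDK6, a cyclin D-dependent kinase of the G1 phase, had 15.07, 13.97 and 13.61 FPKM with the ANXA4 shRNA, against 3.95, 3.66 and 3.62 FPKM with the B4GALNT1 shRNA (1.68 log2, SE 0.058, adjusted p = 4.88e-07). CDK6 too lay on both sides of its single-guide range of 9.44 to 10.5 FPKM. MCRIP1, which binds the corepressor CtBP and is controlled by ERK, had 128, 142 and 141 FPKM with the ANXA4 shRNA, against 42.5, 40.8 and 48.9 FPKM with the B4GALNT1 shRNA (1.62 log2, SE 0.068, adjusted p = 1.09e-06). Most of that distance lay with the B4GALNT1 shRNA, which was 1.46 log2 below the single-guide mean while the ANXA4 shRNA was 0.16 log2 above it. DUSP5, a nuclear phosphatase of ERK, showed the other case: 16.4, 16.5 and 16.1 FPKM with the ANXA4 shRNA, 4.29, 4.47 and 5.72 FPKM with the B4GALNT1 shRNA (1.58 log2, SE 0.086, adjusted p = 3.70e-06), and 5.08 to 6.63 FPKM in the single-guide libraries. The other 8 of the 12 largest positive differences were 1.15 to 1.45 log2. They were ATP6V0E1 (a subunit of the vacuolar proton pump), RFXANK (a subunit of the RFX complex at MHC class II promoters), SNX17 and SNX12 (sorting nexins of endosomes), FGFRL1 (a relative of the FGF receptors), IMPDH1 (an enzyme of guanine nucleotide synthesis), RGP1 (a partner of a RAB6 exchange factor) and ZNF853.

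Of the genes lower with the ANXA4 shRNA, RPLP1 changed the most, and it was one of the most abundant messages in the cells. RPLP1, an acidic protein of the ribosomal stalk, had 446, 438 and 448 FPKM with the ANXA4 shRNA, against 1417, 1491 and 1536 FPKM with the B4GALNT1 shRNA (-1.74 log2, SE 0.031, adjusted p = 4.39e-08). RPLP2, its partner in the stalk, had 380, 371 and 379 FPKM with the ANXA4 shRNA, against 917, 994 and 969 FPKM with the B4GALNT1 shRNA (-1.35 log2, SE 0.032, adjusted p = 1.12e-07). For both genes the B4GALNT1 shRNA differed from the single-guide mean by under 0.05 log2, at -0.01 and -0.03 log2, so the distance sat with the ANXA4 shRNA. Ribosomal protein genes have near-identical processed pseudogenes, and how reads shared with those were counted is not given. AGO1, an Argonaute protein that carries small RNA guides, had 3.55, 3.68 and 4.11 FPKM with the ANXA4 shRNA, against 12.6, 12.2 and 11.8 FPKM with the B4GALNT1 shRNA (-1.47 log2, SE 0.061, adjusted p = 1.08e-06). AGO1 thus had 0.31 of the level of the other hairpin, and its single-guide libraries, at 8.58 to 9.28 FPKM, lay between the groups. Against the NT shRNA, the authors' deposited values were -1.59 log2 with the ANXA4 shRNA and 0.14 log2 with the B4GALNT1 shRNA. EIF3A, the largest subunit of translation initiation factor eIF3, had 53.03, 55.08 and 52.46 FPKM with the ANXA4 shRNA, against 154, 147 and 141 FPKM with the B4GALNT1 shRNA (-1.44 log2, SE 0.039, adjusted p = 1.61e-07). DNMT3B, a de novo DNA methyltransferase, had 3.81, 4.34 and 4.11 FPKM with the ANXA4 shRNA, against 12.5, 13.0 and 12.7 FPKM with the B4GALNT1 shRNA (-1.43 log2, SE 0.056, adjusted p = 8.18e-07). The other 7 of the 12 largest negative differences were -1.57 to -1.36 log2. They were SRPRA (the alpha subunit of the signal recognition particle receptor), NSUN2 (an RNA cytosine methyltransferase), POLR3GL (an RNA polymerase III subunit), BCL2L12, PPIL1 (a prolyl isomerase of the spliceosome), B4GAT1 (a glycosyltransferase that acts on dystroglycan) and RHOB (a small GTPase).

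**Figure D2:**
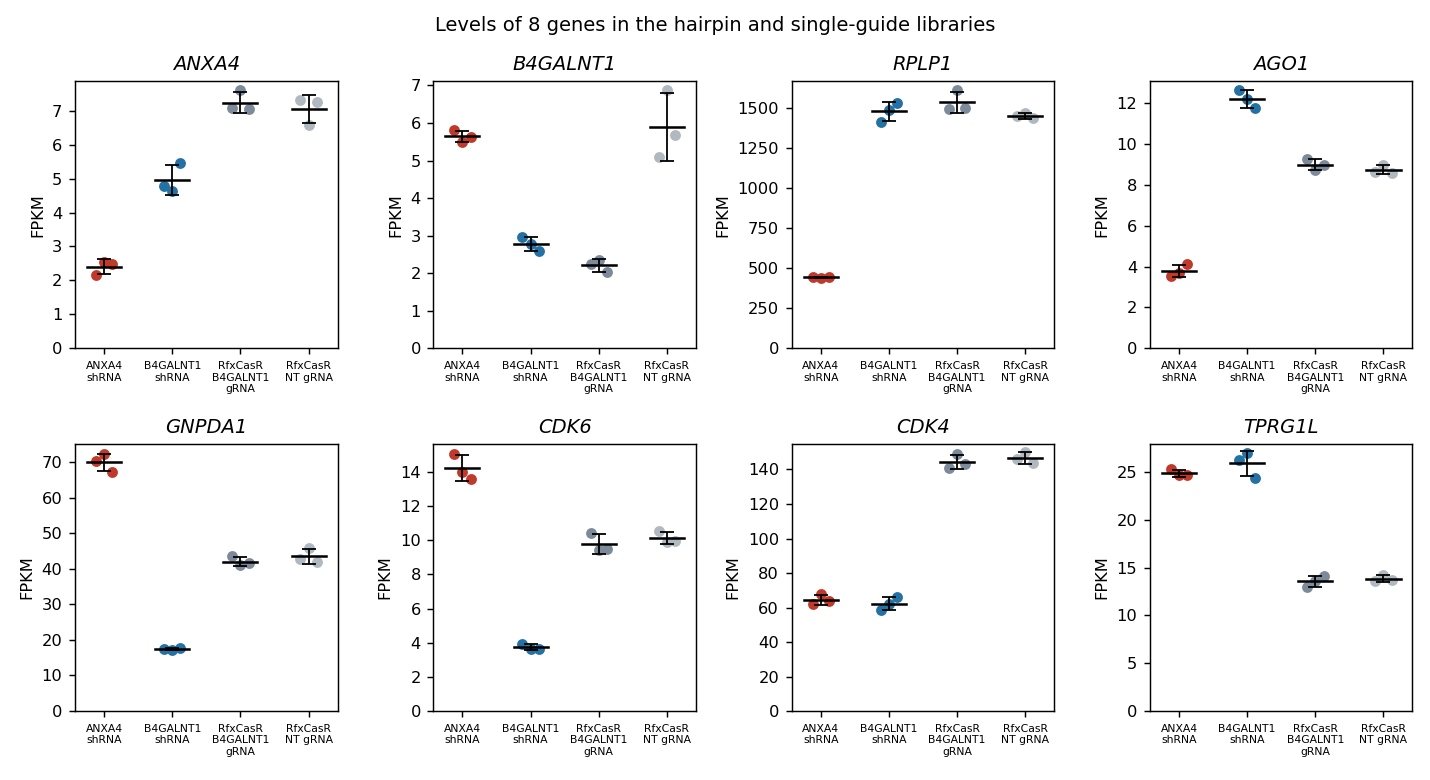
FPKM of 8 genes (y axes start at 0) in the 3 libraries of each group, with ANXA4 shRNA, B4GALNT1 shRNA, RfxCasR with the B4GALNT1 guide and RfxCasR with the NT guide from left to right; points are libraries, the long line is the mean and the bar is the SD (n = 3). RPLP1 is low with the ANXA4 shRNA and not in the other 3 groups shown, GNPDA1 and CDK6 lie above the single-guide libraries with one hairpin and below with the other, and CDK4 and TPRG1L stand at like levels under both hairpins.

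The single-guide libraries allowed each called gene to be placed. A gene was put with 1 hairpin if all 3 libraries of that hairpin lay above, or all below, all 6 single-guide libraries while at least 2 of 3 libraries of the other hairpin lay within their range. By this rule, 820 called genes were high and 679 low with the ANXA4 shRNA, while 286 were high and 504 low with the B4GALNT1 shRNA. Together these were 12.7%, 10.5%, 4.42% and 7.79% of the called genes, against 7.501%, 6.28%, 2.80% and 4.61% of all genes tested. A further 811 called genes lay outside the range on opposite sides with the 2 hairpins, and 1355 lay outside it on the same side by different amounts. In 173, at least 2 of 3 libraries of each hairpin lay within it, and 1844 met none of these descriptions. Both hairpins were set against the same libraries, which express RfxCasR and no hairpin, so this is a description of where the levels lay and carries no test. A gene placed with 1 hairpin is so against the single-guide libraries only. In the authors' deposited tables, against the NT shRNA, PRTG (placed as high with the ANXA4 shRNA) was also 0.80 log2 higher with the B4GALNT1 shRNA, and CYP4X1 (placed as high with the B4GALNT1 shRNA) was also 1.18 log2 higher with the ANXA4 shRNA.

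Genes placed as high with the ANXA4 shRNA included RELB, SEMA3C, PRTG and BAMBI. RELB, a subunit of NF-kB, had 3.21, 3.75 and 3.69 FPKM with the ANXA4 shRNA, against 1.27, 1.44 and 1.12 FPKM with the B4GALNT1 shRNA (1.00 log2, SE 0.089, adjusted p = 4.22e-05), with 0.899 to 1.38 FPKM in the single-guide libraries. SEMA3C, a secreted guidance cue, had 7.72, 7.99 and 7.41 FPKM with the ANXA4 shRNA, against 3.65, 3.13 and 3.38 FPKM with the B4GALNT1 shRNA. BAMBI, a decoy receptor for TGF-beta ligands, had 46.0, 48.6 and 47.0 FPKM with the ANXA4 shRNA, against 23.9, 24.2 and 24.9 FPKM with the B4GALNT1 shRNA. In all 3 genes the ANXA4 shRNA libraries lay above the other hairpin and the single-guide libraries. The genes placed as low with the ANXA4 shRNA were led by RPLP1, B4GAT1, RHOB, RPLP2 and GLTP, a glycolipid transfer protein. Against the NT shRNA, in the authors' deposited tables, RHOB was at -0.56 log2 with the ANXA4 shRNA and at 0.85 log2 with the B4GALNT1 shRNA. There RPLP1, B4GAT1, RPLP2 and GLTP were at -0.03, 0.08, 0.09 and 0.01 log2 with the B4GALNT1 shRNA. GLTP had 5.86, 5.16 and 5.85 FPKM with the ANXA4 shRNA, against 16.4, 15.8 and 15.2 FPKM with the B4GALNT1 shRNA (-1.34 log2, SE 0.059, adjusted p = 1.42e-06).

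The genes placed as high with the B4GALNT1 shRNA were led by CYP4X1, KBTBD8, TRAK2, GNPDA2 and NHLRC3. TRAK2, an adaptor for mitochondrial transport, had 3.79, 4.45 and 4.18 FPKM with the ANXA4 shRNA, against 7.14, 7.32 and 6.91 FPKM with the B4GALNT1 shRNA (-0.66 log2, SE 0.064, adjusted p = 6.82e-05). Against the NT shRNA, the authors' deposited values put more of TRAK2's distance with the ANXA4 shRNA (-0.55 log2) than with the B4GALNT1 shRNA (0.27 log2). For KBTBD8 these values were -0.49 and 0.54 log2, and for NHLRC3 -0.22 and 0.64 log2. GNPDA2, the paralog of GNPDA1, had 4.58, 4.04 and 4.24 FPKM with the ANXA4 shRNA, against 7.21, 7.13 and 7.07 FPKM with the B4GALNT1 shRNA (-0.62 log2, SE 0.058, adjusted p = 5.52e-05). The paralogs thus differed in opposite directions between the hairpins, and the authors' deposited tables gave GNPDA2 as -0.55 log2 with the ANXA4 shRNA and 0.22 log2 with the B4GALNT1 shRNA (not called there), each against the NT shRNA. The genes placed as low with the B4GALNT1 shRNA were led by RFXANK, ZNF853, CCND2, ARID3B and FAM71E1. CCND2, the D-type cyclin D2, had 20.9, 18.3 and 19.0 FPKM with the ANXA4 shRNA, against 8.81, 7.75 and 8.67 FPKM with the B4GALNT1 shRNA (1.12 log2, SE 0.065, adjusted p = 5.06e-06). ARID3B, a DNA-binding protein of the ARID family, had 20.1, 20.6 and 20.4 FPKM with the ANXA4 shRNA, against 8.99, 9.46 and 8.50 FPKM with the B4GALNT1 shRNA (1.10 log2, SE 0.048, adjusted p = 1.33e-06).

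**Figure D3:**
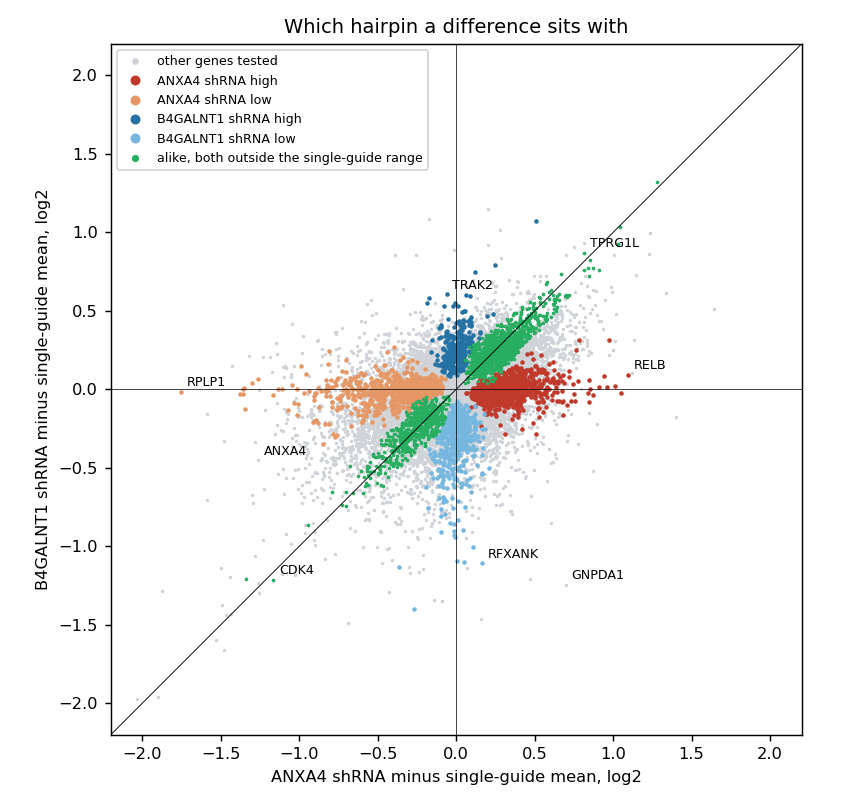
Each point is a gene tested: the x axis is the ANXA4 shRNA mean minus the single-guide mean and the y axis the B4GALNT1 shRNA mean minus the same single-guide mean, both in log2. Both axes share the single-guide libraries; colours mark the called genes that set 1 hairpin apart (820, 679, 286 and 504 genes in the order of the legend) and the 1610 genes alike under both hairpins yet outside the single-guide range, which lie along the diagonal.

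Many genes did not tell the hairpins apart. For 4025 genes, or 29.4% of those tested, the 95% interval of the difference lay within 0.25 log2 of 0. Of these, 1023 had all 6 hairpin libraries above all 6 single-guide libraries and 587 had all 6 below. CDK4, like CDK6 a cyclin D-dependent kinase of the G1 phase, had 61.8, 67.9 and 63.6 FPKM with the ANXA4 shRNA and 58.8, 61.9 and 66.1 FPKM with the B4GALNT1 shRNA, a difference of 0.05 log2 (95% interval -0.07 to 0.17). The single-guide libraries held 141 to 150 FPKM of it, so CDK4 was low alike under both hairpins while CDK6 was among the genes farthest apart. TPRG1L, a presynaptic protein, had 25.3, 24.7 and 24.7 FPKM with the ANXA4 shRNA and 26.2, 26.95 and 24.4 FPKM with the B4GALNT1 shRNA, against 12.9 to 14.3 FPKM in the single-guide libraries. Against the single-guide libraries, ANKRD1, ZNF367 and BTG3 were likewise high and HIST1H1C was likewise low under both. Against the NT shRNA, in the authors' deposited values, ZNF367 lay the other way, at -0.67 log2 with the ANXA4 shRNA and -0.64 log2 with the B4GALNT1 shRNA. CDK4, TPRG1L, ANKRD1, BTG3 and HIST1H1C kept their sign there.

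Genes were also counted in lists by function, to be read against the 27.5% called higher and 19.8% called lower over all genes tested. Of 79 cytosolic ribosomal protein genes, 57 (72.2%) were called lower and 1 higher with the ANXA4 shRNA, with a median difference of -0.15 log2, against a median of 0.033 log2 over all genes. Under quantile normalization the counts were 30 lower and 9 higher. Most of these differences were slight, and 42 of the 79 genes lay within the 0.25 log2 margin. After RPLP1 and RPLP2 the next were RPL14, with 181, 181 and 174 FPKM with the ANXA4 shRNA against 386, 378 and 395 FPKM with the B4GALNT1 shRNA (-1.11 log2, SE 0.028, adjusted p = 1.55e-07), and RPS12 at -0.61 log2. Translation factors went both ways, with 9 called higher and 14 lower of 31. EIF4A1, the RNA helicase of eIF4F, had 197, 192 and 197 FPKM with the ANXA4 shRNA, against 367, 371 and 376 FPKM with the B4GALNT1 shRNA (-0.93 log2, SE 0.025, adjusted p = 1.60e-07), while EIF3I was 0.46 log2 higher.

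Genes of DNA replication and histone chaperones were next. Of 36 genes of S phase and replication, 22 (61.1%) were called lower and 0 higher, with a median of -0.14 log2. CCNE1, the cyclin that drives entry into S phase, had 6.67, 6.501 and 6.72 FPKM with the ANXA4 shRNA, against 18.4, 17.7 and 17.7 FPKM with the B4GALNT1 shRNA (-1.31 log2, SE 0.043, adjusted p = 4.64e-07), and the single-guide libraries lay between at 12.7 to 16.0 FPKM. DUT (dUTPase) differed by -0.94 log2, RPA2 (a subunit of the single-strand binding complex) by -0.78 log2 and PCNA (the sliding clamp) by -0.27 log2. The list's median distance from the single-guide mean was -0.12 log2 with the ANXA4 shRNA and 0.16 log2 with the B4GALNT1 shRNA. Of 20 histone chaperones, 13 (65.0%) were called lower and 4 higher. SET had 68.7, 69.1 and 68.8 FPKM with the ANXA4 shRNA, against 156, 152 and 153 FPKM with the B4GALNT1 shRNA (-1.15 log2, SE 0.026, adjusted p = 1.12e-07), and both lay below the single-guide range of 185 to 204 FPKM. Of 18 histone genes 6 (33.3%) were called lower and 0 higher. Of 26 genes of G2 and mitosis, 7 were called higher and 7 lower as deposited, and 6 higher and 10 lower with centred medians.

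Several lists of stress response genes were counted. Of 22 genes of the integrated stress response, 11 were called lower and 4 (18.2%) higher with the ANXA4 shRNA. ATF4, its transcription factor, had 124, 133 and 123 FPKM with the ANXA4 shRNA, against 203, 216 and 200 FPKM with the B4GALNT1 shRNA (-0.70 log2, SE 0.040, adjusted p = 4.93e-06). The 4 members with the smallest p-values (ATF4; ASNS, asparagine synthetase; PHGDH, of serine synthesis; DDIT4, an inhibitor of mTORC1) were below the single-guide range with both hairpins, and lower with the ANXA4 shRNA. Of 23 p53 targets, 11 (47.8%) were called higher and 6 (26.1%) lower, with a median of 0.22 log2. MDM2, the ubiquitin ligase of p53, had 12.5, 11.2 and 11.2 FPKM with the ANXA4 shRNA, against 7.83, 7.65 and 7.63 FPKM with the B4GALNT1 shRNA (0.54 log2, SE 0.054, adjusted p = 8.52e-05). PMAIP1 and AEN, which act in apoptosis, were 0.59 and 0.69 log2 higher, while CCNG1, a cyclin-like p53 target, was at -0.44 log2. Immediate early genes (5 higher, 5 lower of 15), unfolded protein response genes (8 higher, 9 lower of 23) and heat shock genes (6 higher, 6 lower of 20) were called in both directions. Interferon-stimulated genes were called 4 higher and 4 lower of 22 as deposited, and 4 higher and 7 lower with centred medians.

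The families of the 2 targets were counted without the targets. Of 7 other annexins tested, 4 were called lower and 1 higher with the ANXA4 shRNA. ANXA3 had 4.91, 4.26 and 3.64 FPKM with the ANXA4 shRNA, against 6.62, 7.28 and 6.46 FPKM with the B4GALNT1 shRNA (-0.57 log2, SE 0.091, adjusted p = 0.00113), ANXA6 was at -0.26 log2 and ANXA7 at 0.33 log2. Of 11 other enzymes of ganglioside synthesis, 6 were called higher and 2 lower, with a median of 0.16 log2, and 5 higher and 3 lower with centred medians when B4GALNT1 is counted in. ST6GALNAC6, a sialyltransferase, had 39.7, 40.6 and 39.9 FPKM with the ANXA4 shRNA, against 26.3, 25.2 and 28.5 FPKM with the B4GALNT1 shRNA (0.57 log2, SE 0.047, adjusted p = 2.93e-05). B4GALT6, a lactosylceramide synthase, was 0.60 log2 higher and B4GALT5, its paralog, was at -0.28 log2. B4GALNT4 was at -0.82 log2, about as far apart as B4GALNT1 itself and in the other direction.

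Of 19 genes of hairpin processing and silencing, 5 were called higher and 5 lower, or 26.3% each way, near the shares over all genes. Beside AGO1, XPO5, which exports hairpin precursors from the nucleus, had 51.4, 51.2 and 49.0 FPKM with the ANXA4 shRNA, against 31.5, 29.8 and 30.7 FPKM with the B4GALNT1 shRNA (0.70 log2, SE 0.037, adjusted p = 3.07e-06). HSP90AB1 and HSP90AA1, chaperones that help load Argonaute, were at -0.36 and -0.37 log2. The RFX complex and MHC genes were called higher in 9 and lower in 1 of 15, with a median of 0.26 log2, and RFX5 had 25.8, 27.1 and 26.4 FPKM with the ANXA4 shRNA, against 14.9, 13.4 and 14.7 FPKM with the B4GALNT1 shRNA. Sorting nexins and retromer genes were called higher in 14 and lower in 4 of 29, and genes of the matrix and its integrins were called higher in 14 and lower in 10 of 31. With each library centred on its median, the counts became 13 higher and 8 lower for sorting nexins and 10 higher and 10 lower for the matrix list. Splicing factors had the largest share of members alike of the 37 lists: 25 of 31 lay within the 0.25 log2 margin, with 4 called higher and 5 lower (3 and 10 with centred medians). Metabolic lists were mixed, yet held some large single differences. GAPDH, a glycolytic enzyme often used to normalise expression, had 1459, 1528 and 1548 FPKM with the ANXA4 shRNA, against 2431, 2479 and 2604 FPKM with the B4GALNT1 shRNA (-0.73 log2, SE 0.032, adjusted p = 1.54e-06), while the single-guide libraries held 2349 to 2504 FPKM. HMGCS1, of cholesterol synthesis, was at -1.02 log2, and SCD, the stearoyl-CoA desaturase, was 0.79 log2 higher.

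Because a guide's seed pairs with a short stretch of a message, the letters of the messages were described next, after the differences had been seen. For 11295 of the 11894 tested genes with an NM accession, a transcript with a 3′ UTR was found in GENCODE v29 (GRCh38, a later build than the table's hg19). The longest transcript matched to the accession was read, and it can hold sequence outside the exons behind the FPKM value. For RPL14 the UTR read had 6355 bases, against an exon length of 849 bases deposited with the FPKM values. For each of the 10844 heptamers (7 letters, on the message strand) held by at least 500 of these UTRs, the median difference of the genes that hold it was set against that of the genes that do not. From the 1st to the 99th percentile of heptamers, this distance ran from -0.02 to 0.03 log2. At the low end stood GATGACA, held by 956 genes (8.46%), whose median was -0.09 log2 against 0.05 log2 without it, a distance of -0.14 log2. The next were AGATGAC at -0.10 log2, TGATGAC at -0.09 log2, GGATGAC and GATGACT at -0.07 log2 and GATGACC at -0.05 log2, so that the 6 lowest all held the letters GATGAC. At the high end stood GCTGCCT, held by 1966 genes (17.4%), whose median was 0.09 log2 against 0.03 log2 without it, a distance of 0.07 log2. The next were GGTCAGA at 0.06 log2 and TGGTCAG at 0.05 log2, which overlap in GGTCAG.

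The transcripts of both targets hold letters of these kinds, and a short window of each is shown because of it, with the letters in capitals.
ANXA4: tatggacggagccttgaAGATGACAttc
B4GALNT1: tcAGGCAGCttcTGGTCAGgaggt
The ANXA4 window lies in the coding region, in exon 7 of 13 (chr2:69810596-69810623, plus strand, GRCh38), and its AGATGACA joins the 2 lowest heptamers, AGATGAC and GATGACA. The B4GALNT1 window lies in the coding region, in exon 5 of 11 (chr12:57630485-57630508, minus strand, GRCh38). It holds TGGTCAG as such, and AGGCAGC, which is GCTGCCT read on the other strand. The window does not hold GGTCAGA, the 2nd highest heptamer, which the B4GALNT1 transcript holds 1 time elsewhere. GGCTAAC and AGCTAAC are in neither target's transcript, on either strand. The B4GALNT1 transcript also holds GCTGCCT itself 3 times, and the ANXA4 transcript holds it 2 times. Read on the other strand, the B4GALNT1 transcript holds GATGACA, the lowest heptamer, 1 time. The 3rd lowest and the 6th lowest heptamers are each there 1 time in that reading too, while AGATGAC is there on neither strand. Under that reading the low-end letters are thus not limited to the ANXA4 transcript. Such letters are common: 10.3% of the 11295 transcripts hold AGATGACA and 36.8% hold AGGCAGC, while 7 of them (0.062%) hold AGGCAGC with TGGTCAG starting within 15 bases. That pair, its order and its spacing were read off the B4GALNT1 window itself, so how rare they are is no measure of chance. Whether either hairpin was built on these windows was not tested, since no hairpin sequence is in the sources used here.

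Genes far apart between the hairpins hold the same letters, as short windows from their transcripts show (GRCh38, heptamers in capitals). RPLP1 and RPLP2 hold GATGACA in the coding region, near its end, and the other genes hold theirs in the 3′ UTR.
RPLP1: ccgaggagtctgatGATGACAtgg
RPLP2: ctgaagagtcagatGATGACAtgg
AGO1: tctcggagctgctgAGATGACAggc
DNMT3B: tccccacatctgagAGATGACagg
PPIL1: tgaaccagcttctaGATGACAtag
GNPDA1: ttcatggagtggatGCTGCCTcct
CDK6: agccttccgggcgcGCTGCCTcgt
MCRIP1: aagaaggagcctctGCTGCCTccc
ATP6V0E1: tgttttggccattaGCTGCCTtaa
The first 5 genes were lower and the other 4 higher with the ANXA4 shRNA. Of the 12 largest negative differences, 11 had a UTR to read and 6 of these held GATGACA or AGATGAC in it (AGO1, B4GAT1, BCL2L12, DNMT3B, PPIL1 and RHOB). SRPRA, NSUN2, RPLP1, RPLP2 and EIF3A held one or the other in the coding region instead, as did 24.7% of all 11295 genes. With both regions counted, all 11 held one or the other, against 4 of 10 of the largest positive differences (CDK6, FGFRL1, IMPDH1 and SNX17) and 37.7% of all genes. Of the 12 largest positive differences, 10 had a UTR to read and 8 of these held GCTGCCT (ATP6V0E1, CDK6, DUSP5, FGFRL1, GNPDA1, MCRIP1, RGP1 and SNX17). With the coding region counted too, all 10 held it, against 3 of 11 of the largest negative differences and 36.4% of all genes. The letters were picked on the same differences that rank these genes, so the counts for both sides are a description and no separate support.

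The share of genes with these letters followed the size of the difference. The letters had been picked on that same difference, so the picking favours such a gradient, and the shares are a description. GATGACA or AGATGAC was held by 38.3% of the genes called at least 1 log2 lower with the ANXA4 shRNA (18 of 47) and by 35.4% of those 0.5 to 1 log2 lower. The share was 11.7% among genes not called, 7.41% among those at least 1 log2 higher, and 13.0% among all 11295. GCTGCCT was held by 70.4% of the genes at least 1 log2 higher (19 of 27) and 29.1% of those 0.5 to 1 log2 higher, against 15.6% of genes not called and 17.4% of all. The number of copies in the UTR was followed by the medians for some letters and not for others. The median difference was 0.05 log2 with no GATGACA in the UTR, -0.09 log2 with 1 copy and -0.18 log2 with 2 or more. With GCTGCCT the medians were 0.03 log2 for none, 0.08 log2 for 1 and 0.12 log2 for 2 or more. With AGATGAC, in contrast, the median was -0.06 log2 for 1 copy and -0.04 log2 for 2 or more, and with GGTCAGA it was 0.09 log2 for 1 and 0.08 log2 for 2 or more. Genes with GATGACA in the coding region and not in the 3′ UTR (2103 genes) had a median of -0.04 log2, against 0.07 log2 for the genes without it in any region. UTRs with more copies are also longer and differ in base composition, and the part of length and composition in these medians was not tested. Of 75 ribosomal protein genes with a transcript, 9 held GATGACA or AGATGAC in the coding region or the 3′ UTR. All 9 were called lower with the ANXA4 shRNA, with a median of -0.27 log2. RPLP1, RPLP2, RPL14 and RPS12 were the farthest, while RPL10A, RPL37, RPL9, RPL13 and RPL12 lay at -0.27 to -0.12 log2, among genes without the letters. The 66 without either had a median of -0.14 log2, and 44 were called lower.

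**Figure D4:**
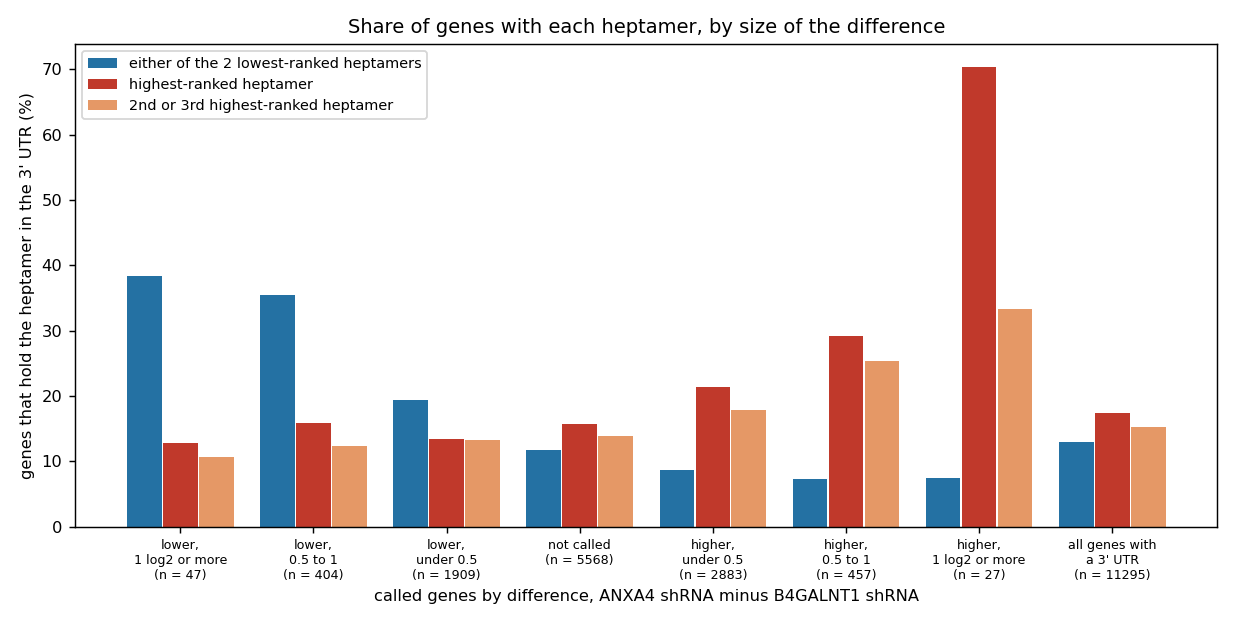
Percent of genes (y axis, from 0) whose 3′ UTR holds the letters, for called genes grouped along the x axis by the difference ANXA4 shRNA minus B4GALNT1 shRNA, with the number of genes under each group. The 2 lowest-ranked heptamers (GATGACA or AGATGAC) reach 38.3% at the low end and the highest-ranked one (GCTGCCT) reaches 70.4% at the high end, against 13.0% and 17.4% of all genes. The heptamers were picked on this same difference, which favours such a gradient.

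The letters differed in the hairpin with which they shifted most. For a library, the median distance from the single-guide mean of genes with the heptamer, less that of genes without it, was -0.15 to -0.13 log2 for GATGACA in the 3 ANXA4 shRNA libraries. It was 0.00 to 0.02 log2 in the 3 B4GALNT1 shRNA libraries. For GCTGCCT the same quantity was -0.020 to -0.015 log2 with the ANXA4 shRNA and -0.09 to -0.08 log2 with the B4GALNT1 shRNA. The shift of genes with GCTGCCT was thus small with the ANXA4 shRNA, yet below all 6 single-guide libraries, whose lowest was -0.007 log2. For TGGTCAG it was 0.00 to 0.01 log2 with the ANXA4 shRNA and -0.05 log2 in all 3 libraries with the B4GALNT1 shRNA. The libraries of the 2 hairpins did not overlap for any of these letters. In the NT shRNA libraries, which took no part in finding the heptamers, it was 0.005 to 0.014 log2 for GATGACA, within 0.01 log2 of 0 for GCTGCCT and 0.02 to 0.04 log2 for TGGTCAG. The heptamers were picked on the difference between the hairpins, so that difference is a description; the side on which each lay against the single-guide libraries was not used in picking them.

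**Figure D5:**
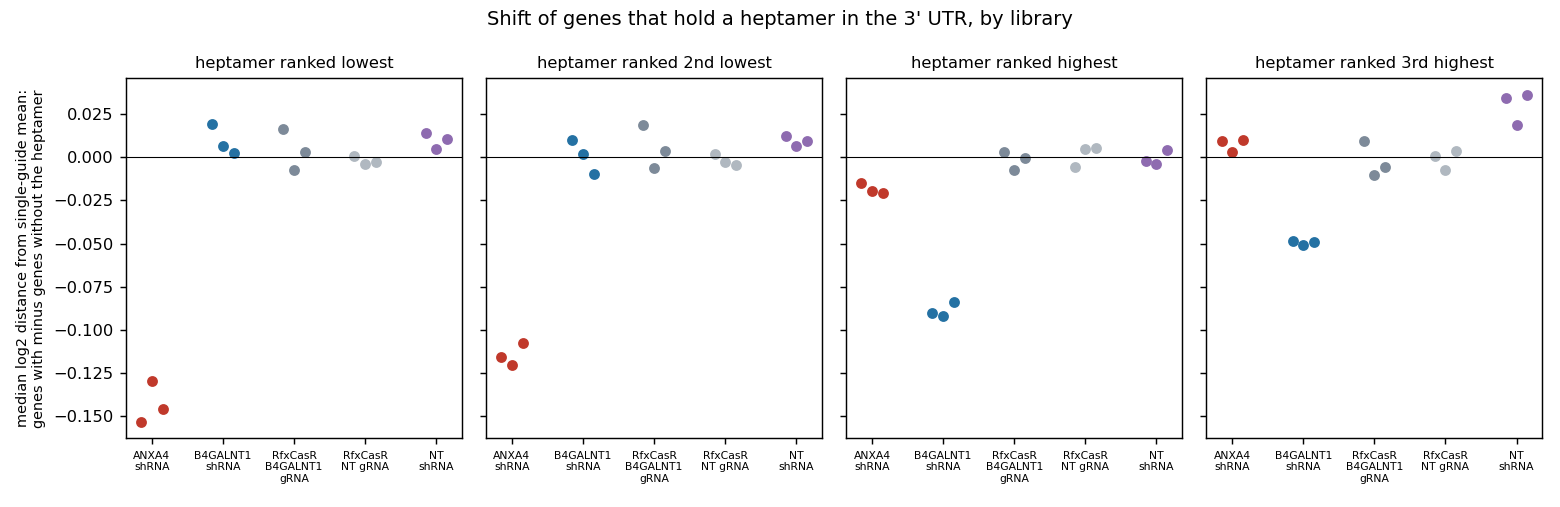
Shift of the genes that hold a heptamer in the 3′ UTR, by library: the y axis is the median log2 distance from the single-guide mean of genes with the heptamer minus that of genes without it, and each point is 1 of 3 libraries in a group. From left to right the panels show the lowest heptamer, the next lowest, the highest and the 3rd highest; the first 2 are lowest in the ANXA4 shRNA libraries and the others in the B4GALNT1 shRNA libraries, and the highest heptamer is also slightly low in the ANXA4 shRNA libraries.

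In the authors' deposited tables, where each hairpin was compared with the NT shRNA, the NT group drops out of the difference between the 2 log2 fold changes. Of the 6421 called genes found in both of these tables, 6418 had a difference of the same sign there, and so did 85 of 85 genes at least 1 log2 apart. For ANXA4 the authors' deposited tables gave -1.29 log2 with the ANXA4 shRNA and -0.30 log2 with the B4GALNT1 shRNA. For B4GALNT1 they gave 0.48 log2 with the ANXA4 shRNA and -0.50 log2 with the B4GALNT1 shRNA, so that the difference between the hairpins drew on both. These values come from the same libraries and are no independent support.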

How the data were processed

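Per the labels' protocols and design text, the libraries were stranded mRNA from 3 replicates per group, called biological there; no source says whether the cultures were separate, and the p-values rest on the spread of these libraries, which may be technical. The authors deposited FPKM values per gene, with an exon length in bases for each gene. Per the submitters' processing notes, the build was hg19, and the notes name DESeq2 1.14.1 under R 3.3.2, with HOMER, STAR and FastQC. The authors also deposited log2 fold changes and adjusted p-values against the NT shRNA, and the log2 values were used for a comparison of signs.

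FPKM was taken as log2(FPKM + 1). The 3 ANXA4 shRNA and 3 B4GALNT1 shRNA libraries were fitted with limma 3.58.1 (R 4.3.3, intensity trend, no covariate), and p-values were Benjamini-Hochberg adjusted over the 13679 genes tested. Reads were recovered as FPKM times exon length times depth, and 95.6% to 99.5% of values per library came out within 0.1 of a whole number. No replicate pair was a duplicate. In simulated data for this comparison, with 200 of 13679 genes changed, the fit recovered 16% of changes of 0.25 log2, 82% of 0.5, 98% of 1 and 98% of 1.5, with 4 false calls among 151. In the real data 47.3% of genes were called, far more than were changed there, so these rates do not carry over to the calls. Depth limits the low genes, and no interval on single counts was used.

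The members and the 37 gene lists were chosen with earlier results of these data known. Named genes are both targets, the 12 largest called differences in each direction among NM genes with no overlap, up to 4 called genes per list by p, 5 per placement class and the 6 genes alike under both hairpins that lay farthest from the single-guide libraries; 1 gene that this rule takes is not reported here. The heptamers were read after the differences had been seen. Alternatives covered the pseudocount, the filter, the scaling, the samples in the model, limma-voom on the recovered reads, a replicate block and leaving out each library.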

Additional observations from a re-analysis of the deposited data

How the results depend on the processing

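Across 19 alternatives, 192 values of the comparisons kept their direction and their side of the threshold, or stayed within 1.5 times, and 17 did not. The count of called genes at least 1 log2 apart on the log2(FPKM + 1) scale (99) became 204 with a pseudocount of 0.1, 28 with a pseudocount of 5 and 239 with limma-voom on recovered reads; the first 2 follow from how a pseudocount shrinks low genes, and for the third the cause was not tested. The 4025 genes alike became 8364 with a pseudocount of 5 and 8357 with no filter, where low genes differ little on the log scale. Leaving out 1 library at a time gave 463 to 826 genes placed as high and 388 to 668 as low with the ANXA4 shRNA, and 142 to 310 high and 283 to 521 low with the B4GALNT1 shRNA; the low ends (463, 388, 142 and 283) all came from leaving out a library of the other hairpin, since both of its remaining libraries must then lie within the range, and any of the 3 did this. It gave 5594 to 5808 called genes, 3173 to 3371 higher and 2328 to 2454 lower, 93 to 107 at least 1 log2 apart, 3296 to 3612 alike, -0.85 to -0.75 log2 for ANXA4 and 0.78 to 0.85 log2 for B4GALNT1. Of called genes, 52.2% were higher with the ANXA4 shRNA under quantile normalization and 51.1% under voom. Deviations of same-numbered libraries of the hairpins had correlations of 0.09, -0.02 and 0.08, too low to take the numbers as pairs, although the first and the third were the highest of the 9 pairings and replicate 3 had the lowest percent of reads in genes in 7 of 7 groups; a fit with the replicate block called 6614 genes and moved no count by over 1.5 times. Of 3221 values of named genes, 3208 kept their call and direction. ZNF367, not called, changed sign at -0.0302 log2 with centred medians, -0.0285 log2 with quantile normalization and -0.0209 log2 with voom, and ran from -0.0276 to 0.0497 log2 when 1 library was left out.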
